A study of Caenorhabditis elegans with 12 samples.

Results

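The nuclear hormone receptor genes of Caenorhabditis elegans were followed in RNA-seq libraries of whole worms. The table held 283 genes with a symbol that starts with nhr-. Of these, 7 (nhr-13, nhr-23, nhr-25, nhr-49, nhr-57, nhr-66 and nhr-80) were left out by name, and 75 had a mean below 10 normalized counts over the 12 libraries, 10 of them without a read in any library. The remaining 201 genes are described here, out of 14352 genes with a mean of at least 10 and 45327 genes in the table. The genes just inside this limit were nhr-93 (mean 10.3) and nhr-175 (mean 10.8), and those just outside were nhr-245 (mean 9.70) and nhr-51 (mean 9.52).

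Worms of the wild type strain N2 and of the mutant strain wrn-1(gk99) were grown at 25°C from the first larval stage (L1) to the last one (L4), with 0 or 10 mM vitamin C (sodium L-ascorbate) in the plates. The gk99 allele is a deletion in wrn-1, the worm counterpart of the human Werner syndrome helicase gene, and the mutant strain had been out-crossed to N2. The 4 groups, N2, vitamin C treated N2, wrn-1(gk99) and vitamin C treated wrn-1(gk99), had 3 biological replicates each. All of them were wild type or mutant throughout the body, and RNA was taken from the whole animal, so a lower value can come from fewer cells of a type or from less RNA per cell, and these cannot be told apart. The study noted a developmental delay of the mutant, and harvest followed the stage of the animals rather than the clock.

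Nuclear hormone receptors are transcription factors with a zinc finger domain that binds DNA and a domain that can bind a small ligand, such as a steroid or a fatty acid. Nematodes carry a much larger set than insects or mammals, most of which descends from an ancestor related to HNF4, a receptor that vertebrates use in liver and gut. A small number have clear relatives in other phyla. In C. elegans, members of the family take part in molting, sex determination, fat and propionate metabolism, detoxification and the response to diet.

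Between 13446257 and 34234211 reads per library had been counted on genes. The normalized count of a library is the read count of a gene divided by the size factor of that library, and the size factors ran from 0.722 to 1.77. The library labelled N2 vitC replicate 3 stood apart from its group. Over all tested genes, its log2 values correlated at 0.960 to 0.961 with the other libraries of its group and at 0.994 to 0.996 with vitamin C treated wrn-1(gk99), while other pairs within a group had 0.992 to 0.997. For 160 of the 201 receptor genes this library lay nearer to the mean of vitamin C treated wrn-1(gk99) than to the mean of N2 vitC replicates 1 and 2. Results that rest on this library are therefore given with and without it. The wrn-1 gene (F18C5.2) itself had 499 to 516 normalized counts in N2, and the untreated mutant had 699.9 to 854. In treated N2 it had 407 and 380.3 in replicates 1 and 2 and 614 in replicate 3, and in the treated mutant 648 to 835. Its count covers the whole gene and not only the deleted part, so it does not check the genotype.

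Marker genes of tissues and of the molt differed between the groups as well. Summed over 8 of 8 genes of molting and cuticle synthesis, N2 had 41001 to 43828, the untreated mutant 63363 to 66040 and the treated mutant 45055 to 57242. In vitamin C treated N2 it was 115408 and 114630 in replicates 1 and 2, and 48471 in replicate 3. The sum over 5 of 5 intestine genes was 18911 to 19783 in N2, 34172 to 35138 in the mutant, and 21589 to 23389 in the treated mutant. In treated N2 it was 15984 and 16025 in replicates 1 and 2, and 22480 in replicate 3. The sum over 4 of 4 germ line genes was 9253 to 9588 in N2 and 13675 to 13984 in the mutant, and that over 5 of 5 neuron genes was 10642 to 11276 in N2 and 7706 to 8444 in the mutant, both untreated. No gene of these 4 lists was at 0 in a group. The sums do not speak for each gene. At an adjusted p under 0.01 in limma, 3 intestine genes were higher in the untreated mutant than in N2 and 1 was lower. The molting genes gave 3 and 1, the germ line genes 2 and 0, and the neuron genes 0 and 3. Further lists gave 0 and 0 for 3 body wall muscle genes, and 1 and 1 for the 3 sperm genes that were tested. Of all tested genes 43.4% differed at this threshold. The part of these differences in the results below was not tested.

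The receptor genes rested on few reads. The median of their means over the 12 libraries was 153 normalized counts, with quartiles at 61.5 and 295, against 382 over all tested genes, with no correction for length. Of the 201 genes, 9 had a mean above 1000 and 42 had a mean below 50. Per kilobase of coding length, which is known for 195 of them, the highest level was that of nhr-97 (3668 normalized counts per kb), followed by nhr-114 (2880 per kb), which protects the germ line when the diet is poor in vitamin B12, and nhr-68 (2037 per kb), an activator of the propionate shunt. The gene nhr-41, a relative of the vertebrate receptors TR2 and TR4, had 1051 per kb and nhr-1 had 1013 per kb. Chromosomes were taken from the WBcel235 annotation, which holds 200 of the genes. Chromosome V carried 132 of these 200 (66%), against 21.4% of all tested genes. The median level per kb was 95.0 on chromosome V, 260.4 on chromosome IV with 27 genes, and 328 on chromosome X with 17 genes.

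**Figure D1:**
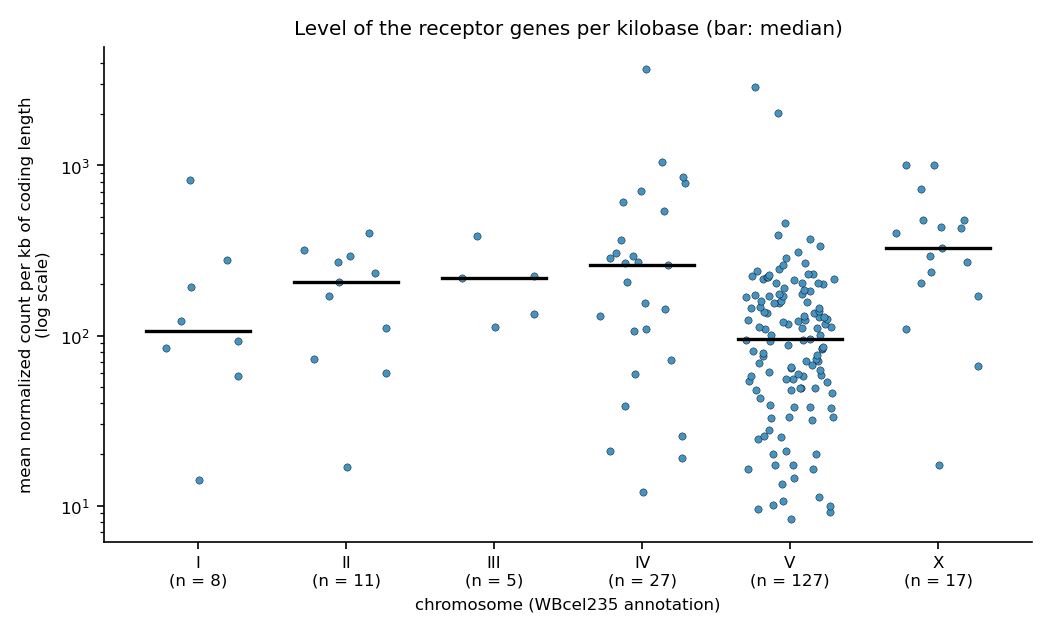
Mean normalized count per kb of coding length (log scale) of each receptor gene, by chromosome, with the median as a bar. The 127 genes with a coding length on chromosome V have a median of 95.0 per kb, and 17 genes on chromosome X have a median of 328 per kb.

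In the first comparison, untreated wrn-1(gk99) against untreated N2, a gene was said to pass when its adjusted p-value was under 0.01 (limma on log2 of the normalized count plus 1, Benjamini-Hochberg adjustment over all 14352 genes). It was called when, in addition, its group means differed by a ratio of 2 or more (0.5 or less) and one of them exceeded the minimum that the study's methods set, which lies just under the median mean of the receptor genes. Of the 201 receptor genes, 64 passed (31.8%, against 43.4% of all tested genes), 43 of them higher in the mutant (21.4%, against 20.4%) and 21 lower (10.4%, against 23%). A call was made for 9 (4.48%, against 10.8% of all tested genes). The genes nhr-71, nhr-74, nhr-85, nhr-113, nhr-144 and nhr-173 were called higher (6 genes, 2.99%, against 4.24%), and nhr-5, nhr-170 and nhr-280 were called lower (3 genes, 1.49%, against 6.57%). The median log2 fold change was 0.10 over the receptor genes and 0.01 over all tested genes. Scaling every library to the same total moved the median of all genes by 0.16 and that of the receptor genes to 0.27. Then 12 receptor genes were called, all 12 higher, with 58 passing as higher and 14 as lower. The shares of all tested genes under this scaling were not counted. Since it raised genes in general, these counts do not set the receptor genes apart. Without N2 vitC replicate 3, whose spread enters the shared variance, 93 passed (46.3%, against 62.9%), and 9 were called (against 11%).

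The genes called higher in wrn-1(gk99) rose between 2.01-fold (nhr-173) and 3.18-fold (nhr-74). The count of nhr-113 (ZK1025.9, chromosome I, 8 exons) was 81.9, 62.3 and 90.6 in N2 and 190.2, 194 and 186 in wrn-1(gk99). All mutant libraries lay above all N2 libraries (log2 fold change 1.29, SE 0.13, adjusted p = 1.06e-05). The gene was called under all 22 alternatives of the processing. The gene nhr-71 (K11E4.5, chromosome X, 10 exons) had 187, 209.5 and 219.6 in N2 and 427, 401 and 457 in wrn-1(gk99). Its groups did not overlap (log2 fold change 1.06, SE 0.09, adjusted p = 2.67e-06). Without N2 replicate 1 it was no longer called. The pseudogene nhr-144 (F59E11.12, chromosome V) had 128, 121 and 116.2 in N2 and 259.6, 266 and 229.6 in wrn-1(gk99) (log2 fold change 1.04, SE 0.13, adjusted p = 3.42e-05).

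The gene nhr-85 (W05B5.3, chromosome I, 7 exons) encodes the relative of the insect receptor E75 and of vertebrate Rev-Erb, and takes part in the timing of larval development and molting. Its count was 189, 233 and 172 in N2 and 501, 438 and 384 in wrn-1(gk99). The strains did not overlap (log2 fold change 1.15, SE 0.25, adjusted p = 0.00185). In the current annotation, 835 of its 2516 exon bases are shared with npr-14, and the strand setting of the counting is not given in the sources used here, so reads of this stretch cannot be told apart. The adjusted p-value was just above the threshold without N2 replicate 3 or without wrn-1(gk99) replicate 1 (highest 0.0102).

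The largest called increase was that of nhr-74 (C27C7.3, chromosome I, 9 exons). Its count was 43.0, 51.7 and 55.4 in N2 and 156, 155 and 166 in wrn-1(gk99), a ratio of 3.18. Its adjusted p-value was 0.00607. The vitamin C treated N2 libraries, whose spread enters the fit, had 11.8, 19.8 and 64.7, and without replicate 3 of that group the adjusted p-value was 4.24e-07. The call was lost in 9 of the 12 runs that left out a library, those without any replicate of N2, wrn-1(gk99) or vitamin C treated wrn-1(gk99), with adjusted p-values up to 0.0246. Its neighbour nhr-73 (C27C7.4) was also higher (log2 fold change 1.11, adjusted p = 0.00908), from a mean of 9.70 to one of 21.6. The gene nhr-173 (C56E10.1, chromosome X) had 126, 110.1 and 146 in N2 and 249, 256 and 262 in wrn-1(gk99), a ratio of 2.01, and lost its call without N2 replicate 1 or 2 or without wrn-1(gk99) replicate 3.

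Among the genes called lower, nhr-280 (C29F9.13, chromosome III, 3 exons) changed most. It had 134, 158 and 146 in N2 and 64.9, 41.3 and 39.8 in wrn-1(gk99) (log2 fold change -1.60, SE 0.17, adjusted p = 1.53e-05). The gene nhr-170 (C54E10.5, chromosome V, 7 exons) had 204, 219 and 212 in N2 and 106, 108 and 96.4 in wrn-1(gk99) (log2 fold change -1.03, SE 0.11, adjusted p = 9.65e-06). The untreated strains did not overlap in either gene. For nhr-5 (Y73F8A.21, chromosome IV, 13 exons) the counts were 676, 789 and 748 in N2 and 334, 343 and 369 in wrn-1(gk99) (log2 fold change -1.08, SE 0.17, adjusted p = 0.000289). With equal library totals none of these 3 genes met the call, although each still passed, with ratios of 0.374 for nhr-280, 0.548 for nhr-170 and 0.530 for nhr-5. The call of nhr-280 was also lost without N2 replicate 2, and that of nhr-170 without wrn-1(gk99) replicate 3.

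The largest decrease of any receptor gene missed the call only through its level. The count of nhr-246 (ZK1037.4, chromosome V, 9 exons) was 128, 149 and 144.99 in N2 and 25.4, 22.7 and 26.8 in wrn-1(gk99), a ratio of 0.178 (log2 fold change -2.44, SE 0.41, adjusted p = 0.000388). Its mean in N2 was 140.4 ± 11.2 (SD, n = 3), slightly below the minimum for a call. Without that minimum 23 receptor genes would be called, 18 higher and 5 lower. The shares of all tested genes called without it were not counted, so these numbers do not set the receptor genes apart. The largest increases among the added genes were those of nhr-162 (ratio 3.87), nhr-148 (3.53), nhr-99 (2.81) and nhr-168 (2.70), and the other decrease was that of nhr-124 (0.498). The gene nhr-148 rested on as few as 4 reads in a library, and nhr-162 on as few as 9.

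**Figure D2:**
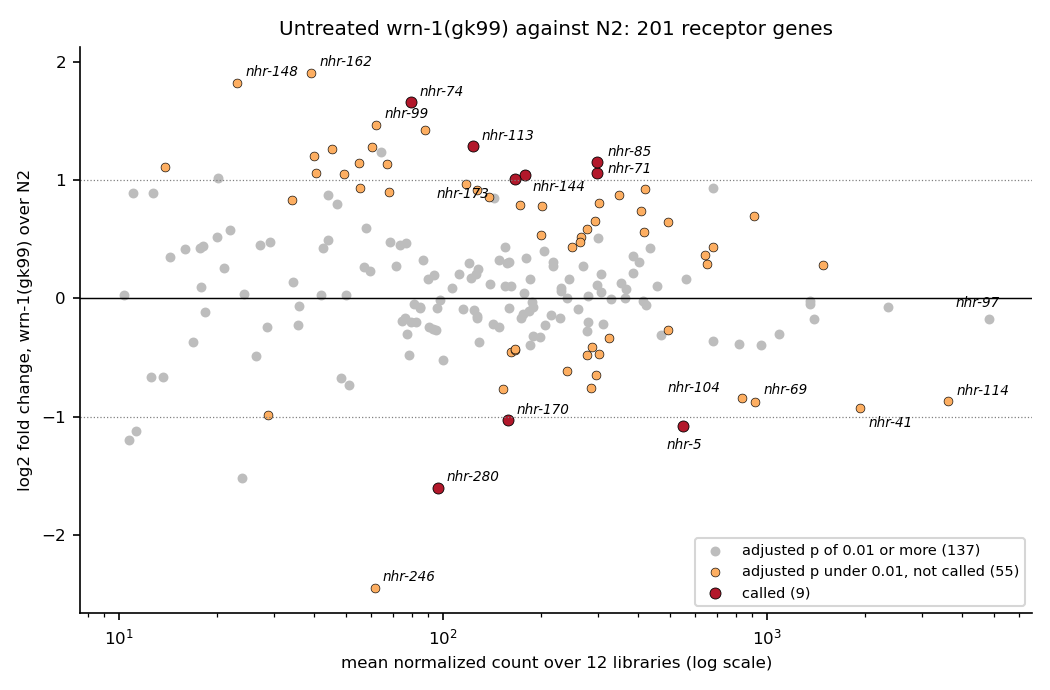
Log2 fold change of wrn-1(gk99) over N2 (vertical axis) against the mean normalized count over the 12 libraries (log scale) for the 201 receptor genes. Dotted lines mark a difference of 1 in either direction. The 9 called genes are red, 55 more that passed are orange, and nhr-246 lies lowest at -2.44.

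Of the 98 genes with a mean over all libraries no higher than the minimum for a call, 20 passed as higher in the mutant (20.4%, against 12.9% of all tested genes of that level) and 3 as lower (3.06%, against 18.6%). Of the 103 above it, 23 passed as higher (22.3%, against 23.7% at that level) and 18 as lower (17.5%, against 25.0%). The genes nhr-114, nhr-41 and nhr-31 were those with a mean above 1000 that passed, and their changes stayed under the ratio of a call. The count of nhr-114 was 4729.9, 5074 and 5015 in N2 and 2685, 2651 and 2767 in wrn-1(gk99), or 0.547 times as many (adjusted p = 8.1e-07). That of nhr-41 was 2368, 2356 and 2297 in N2 and 1251, 1229 and 1213 in the mutant, a ratio of 0.526 (adjusted p = 0.00186). In both the strains did not overlap. The gene nhr-31, which acts in the excretory canal, was higher, with a log2 fold change of 0.28 (adjusted p = 0.00341).

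Of the conserved receptors, 7 of the 8 on the list were tested, since nhr-111 lay below the minimum. In wrn-1(gk99), 3 passed as higher and 1 as lower, and 43.4% of all tested genes passed in either direction. The gene nhr-8, a relative of daf-12 that acts in cholesterol and xenobiotic metabolism, had 642, 707 and 711 in N2 and 1090.3, 1105 and 1145 in wrn-1(gk99) (log2 fold change 0.70, adjusted p = 7.79e-05), with no overlap. The gene nhr-6, the only NR4A receptor of the worm, which acts in the spermatheca, was higher by 0.43 on the log2 scale (adjusted p = 0.0071), and the others that passed were nhr-85 and nhr-41, given above. The gene nhr-91, a relative of the vertebrate germ cell nuclear factor, had 407, 407 and 394 in N2 and 784, 761 and 759.5 in wrn-1(gk99). These groups did not overlap, but the adjusted p-value was 0.0106, and 1.7e-09 without N2 vitC replicate 3. The remaining values were -0.30 for nhr-48 (adjusted p = 0.0219) and -0.19 for nhr-67, the worm tailless gene (adjusted p = 0.268).

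All 12 receptors on the list for metabolism, diet and stress were tested, and 3 passed as higher and 1 (nhr-114) as lower (33.3%, against 43.4%). Beside nhr-8 these were nhr-45, which acts in detoxification when mitochondria are damaged (log2 fold change 0.43, adjusted p = 0.00111), and nhr-76, which acts in fat storage in the intestine. The count of nhr-76 was 28.2, 38.5 and 35.2 in N2 and 66.6, 85.8 and 75.6 in wrn-1(gk99) (log2 fold change 1.14, SE 0.20, adjusted p = 0.000446). Values that did not pass were 0.85 for nhr-62, needed for the long life under dietary restriction (adjusted p = 0.0134), -0.39 for nhr-14, which acts in iron uptake and immunity (adjusted p = 0.0123), and 0.36 for nhr-28 (adjusted p = 0.0118). The log2 fold changes of nhr-10, nhr-42, nhr-64, nhr-68 and nhr-86 lay between -0.22 and 0.17. The study also used binding maps of 11 receptors, of which 9 were tested and 4 passed (44.4%, against 43.4%), all higher in wrn-1(gk99). They were nhr-6, nhr-76, nhr-116 (log2 fold change 0.92) and nhr-129 (0.90). The other 5 were nhr-11, nhr-12, nhr-28, nhr-67 and nhr-237, and nhr-2 and nhr-77 lay below the minimum.

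A short list of related genes outside the nhr- names was followed as well. Of 5 nuclear receptor genes with another name, 4 were tested and 1 was called, against 10.8% of all tested genes (4.24% called higher). The called gene was sex-1, which counts X chromosomes in sex determination. It had 111.5, 125 and 106 normalized counts in N2 and 244, 248 and 238 in wrn-1(gk99) (log2 fold change 1.09, SE 0.12, adjusted p = 1.4e-05), with no overlap. The steroid receptor gene daf-12 had 3108 ± 244 in N2 and 2826 ± 218 in wrn-1(gk99) (SD, n = 3), with an adjusted p-value of 0.604. The cofactor genes cbp-1, din-1, gei-8 and mdt-15 had log2 fold changes between -0.37 and 0.12, with adjusted p-values of 0.168 or more in limma. The lowest was that of din-1, whose adjusted p-value was 0.00473 without N2 vitC replicate 3. With vitamin C in wrn-1(gk99), sex-1 passed as lower (log2 fold change -0.60, adjusted p = 0.0040). The counts of daf-12 in vitamin C treated N2 were 5862 and 5858 in replicates 1 and 2, and 3059 in replicate 3. Its log2 fold change with vitamin C in N2 was 0.61 (adjusted p = 0.0659), and 0.92 without replicate 3 (adjusted p = 1.08e-05).

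Many receptor genes stand next to each other in the genome. With neighbours joined when their starts lay within 20 kb, 85 of the 200 placed genes stood alone, and 85 stood in 15 runs of 3 or more, 11 of them on chromosome V. The longest run had 12 genes, from nhr-123 to nhr-131. In it, 2 adjacent genes passed as higher, nhr-99 (log2 fold change 1.47) and nhr-55 (0.97), and nhr-131 at its end passed as lower (-0.41). A run of 7 genes without another coding gene between them held 4 adjacent genes that passed as higher, nhr-163 (0.83), nhr-139 (1.05), nhr-140 (1.14) and nhr-162 (1.91). The other members, nhr-161, nhr-107 and nhr-42, had 0.23, 0.02 and 0.06. In a run of 9 genes from nhr-133 to nhr-96, 3 passed and all 3 were lower, nhr-18 (-0.62), nhr-103 (-0.46) and nhr-134 (-0.34). Of all receptor genes 31.8% passed, and of all tested genes 43.4%. These runs were picked from the 15 after their values were seen. Others, such as the run of 7 genes from nhr-206 to nhr-136, held 0 passing genes. Neighbours can be close copies, which were not compared here by sequence, so reads could be divided between them.

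**Figure D3:**
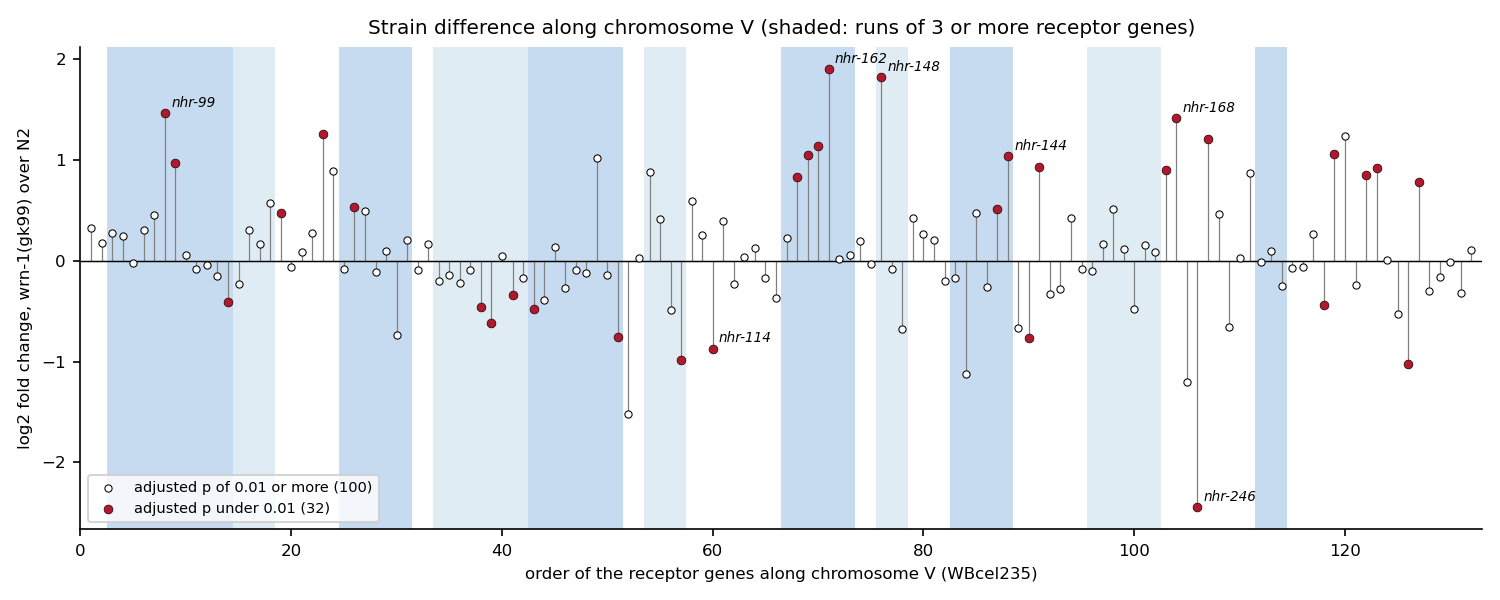
Log2 fold change of wrn-1(gk99) over N2 for the 132 receptor genes of chromosome V in their order along it, with runs of 3 or more shaded. Red points are the 32 genes that passed (24.2%, against 47.8% of all tested genes on chromosome V). The 4 adjacent red points around nhr-162 belong to a run of 7.

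In wrn-1(gk99), about as few receptor genes as genes in general differed with vitamin C. Of the 201 receptor genes 16 passed in limma (7.96%, against 10.3% of all tested genes), 5 of them higher with vitamin C (2.49%, against 6.05%) and 11 lower (5.47%, against 4.24%), and 0 were called (against 1.8%). At an unadjusted p under 0.05, 61 receptor genes stood out (30.3%, against 31.3%), and edgeR and DESeq2 called 0 as well. The median log2 fold change was -0.06 over the receptor genes and -0.01 over all genes. Without N2 vitC replicate 3, 42 passed (20.9%, against 28.5%) and nhr-74 was called (against 2.47%). That gene had 156, 155 and 166 without and 75.2, 80.3 and 76.3 with vitamin C, a ratio of 0.485, with an adjusted p-value of 0.122 in all libraries and 0.000166 without the library. Leaving out untreated wrn-1(gk99) replicate 1, 2 or 3 lowered the number that passed to 4 in each case.

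The largest increase with vitamin C that passed was that of nhr-280, from 64.9, 41.3 and 39.8 to 90.8, 102 and 95.0 (log2 fold change 1.00, SE 0.17, adjusted p = 0.00188). The count of nhr-170 rose from 106, 108 and 96.4 to 152, 172 and 174 (log2 fold change 0.67, SE 0.11, adjusted p = 0.000915). The groups of both genes did not overlap. The genes nhr-36 (0.53), nhr-104 (0.43) and nhr-226 (0.41) also passed as higher. Of the genes that passed as lower, nhr-99 (-0.77), nhr-173 (-0.72), nhr-113 (-0.71), nhr-71 (-0.59) and nhr-40 (-0.52) had the largest log2 fold changes. The gene nhr-40, which acts in the development of body wall muscle, had 791, 811 and 778 without and 558, 537 and 562 with vitamin C (adjusted p = 0.000211). Passing was kept under all alternatives by 3 of the 16 genes in this comparison. The comparison shares its untreated wrn-1(gk99) libraries with the first one, so that a chance deviation of these libraries would enter both with opposite signs.

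Receptors with a known set of targets could be read beside them. NHR-10 and NHR-68 act one after the other to turn on the propionate shunt, a route that breaks down propionate when vitamin B12 is scarce. Both genes fell with vitamin C in wrn-1(gk99). The count of nhr-10 went from 533, 578 and 511 to 399.7, 442 and 359 (log2 fold change -0.44, adjusted p = 0.00824), and that of nhr-68 from 2562, 2626 and 2442 to 1868, 2014 and 1966 (-0.38, adjusted p = 0.00689). Neither held its place under the threshold when single libraries were left out, with adjusted p-values up to 0.0461 and 0.0361. Of 5 shunt genes, 4 passed as lower with vitamin C in wrn-1(gk99) (80%, against 4.24% of all tested genes), among them alh-8 (log2 fold change -0.67) and ech-6 (-0.41). In N2, 3 passed as lower (60%, against 7.48%), namely acdh-1, Y38F1A.6 (-0.42) and ech-6 (-0.45). There F09F7.4 was lower (-0.35, adjusted p = 0.0110) and alh-8 higher (0.31, adjusted p = 0.0151). Neither of them passed with all libraries, and both passed without N2 vitC replicate 3. The log2 fold changes of nhr-10 and nhr-68 in N2 were -0.37 (adjusted p = 0.0176) and -0.26 (adjusted p = 0.0376). The first enzyme gene of the shunt, acdh-1, had 23666, 23847 and 24730 without and 24529, 25536 and 25379 with vitamin C. In N2 it fell from 51978, 51065 and 53927 to 28207, 27174 and 25278, a log2 fold change of -0.96 (adjusted p = 5.4e-06). Between the untreated strains acdh-1 was called lower (-1.12) and alh-8 higher (1.23) in wrn-1(gk99). F09F7.4 (0.50) and Y38F1A.6 (0.58) also passed as higher, and ech-6 (0.19) did not pass. In all, 80% of the 5 genes passed, against 43.4% of all tested genes. Of the 5 intestine markers, 3 passed as lower with vitamin C in wrn-1(gk99) (60%, against 4.24%) and 1 as higher (20%, against 6.05%). In N2, 0 of them passed as lower and 1 as higher (20%, against 5.26%). The part of the receptors or of the mix of tissues in the values of the shunt genes was not tested.

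In N2, vitamin C was followed by 20 receptor genes that passed (9.95%, against 12.7% of all tested genes), 15 higher (7.46%, against 5.26%) and 5 lower (2.49%, against 7.48%), and by 1 call (0.498%, against 2.49% called and 1.16% called higher). With equal totals, which moved the median of all genes by 0.10, 18 passed as higher and 1 as lower, and the shares of all tested genes were not counted. The called gene was nhr-91 (Y15E3A.1, chromosome X, 9 exons). It had 407, 407 and 394 in N2 and 1329.6, 1272 and 520.1 in vitamin C treated N2, a ratio of 2.58 (log2 fold change 1.25, SE 0.27, adjusted p = 0.00553). All treated libraries lay above all untreated ones, but replicate 3 stood far below the others and close to vitamin C treated wrn-1(gk99) at 554, 483 and 509. Without that library the ratio was 3.23 (adjusted p = 4.57e-11). The call was lost in 9 of 12 runs that left out a library and in the fit with only the 2 groups compared. Leaving out N2 vitC replicate 3 raised the number of genes that passed to 56 (27.9%, against 36.4%, with 1 call against 4.59%), while leaving out N2 replicate 2 lowered it to 6, and with only the 2 groups compared 0 passed. The sum of the molting markers was 115408 and 114630 in replicates 1 and 2 and 48471 in replicate 3, so the level of nhr-91 and the markers moved together across these 3 libraries, and the part of the markers in the result was not tested.

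Of the 15 genes that passed as higher in vitamin C treated N2, 8 had a mean over all libraries above the minimum for a call and 7 did not. Beside nhr-91, the largest log2 fold changes were those of nhr-265 (1.52), nhr-162 (1.36), nhr-205 (1.13), nhr-123 (1.00) and nhr-99 (0.88). The count of nhr-162 was 12.1, 19.9 and 14.9 without and 43.6, 43.4 and 36.6 with vitamin C, and that of nhr-265 was 34.9, 30.5 and 21.3 without and 82.4, 104.05 and 67.2 with it. Replicate 3 was the lowest of the treated libraries in both and still above every untreated one. The 5 that passed as lower were nhr-114 (-0.47), nhr-170 (-0.47), nhr-226 (-0.40), nhr-109 (-0.37) and nhr-104 (-0.34), and their treated libraries all lay below the untreated ones. The count of nhr-85 was 395, 365 and 186 with vitamin C, against 189, 233 and 172 without. These groups overlapped, and the adjusted p-value was 0.101, or 5.78e-05 without replicate 3. The count of nhr-246 was 76.5, 74.3 and 19.6 with vitamin C, all below the untreated 128 to 149, and its log2 fold change was -1.52 (adjusted p = 0.0197). Without replicate 3 the change was smaller, at -0.88, with an adjusted p-value of 0.00179. Not a single gene of this comparison passed under all alternatives, since none passed in the fit with only the 2 groups compared. For nhr-114, nhr-162 and nhr-265 that fit was the only alternative that lost them. The comparison shares its untreated N2 libraries with the first one, so that a chance deviation of these libraries would enter both with the same sign.

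**Figure D4:**
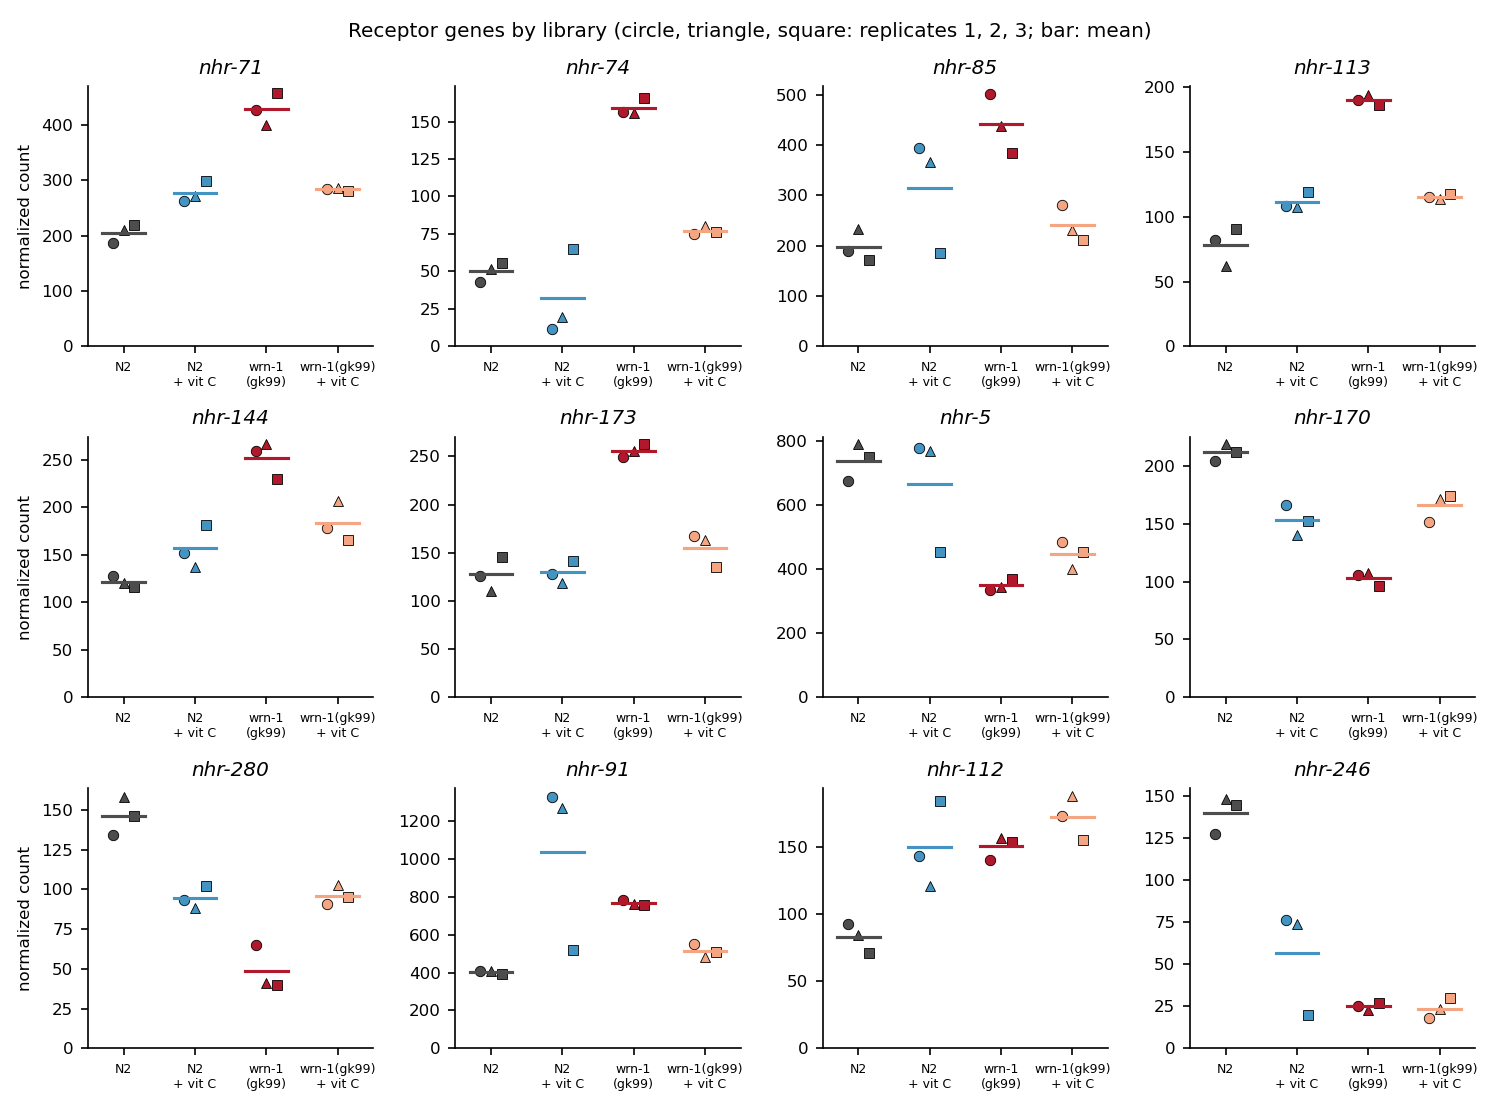
Normalized counts of 12 receptor genes in each of the 12 libraries, with the group mean as a bar, for all genes called in any comparison and nhr-246. The square in the second group is N2 vitC replicate 3, which lies away from the other 2 libraries of its group in nhr-5, nhr-74, nhr-85, nhr-91 and nhr-246.

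The responses of the strains differed in part of the family. The interaction, which is the log2 response in wrn-1(gk99) minus that in N2, passed for 22 receptor genes (10.9%, against 14.9% of all tested genes), 7 higher (3.48%, against 9.29%) and 15 lower (7.46%, against 5.62%). A call asked for a difference of at least 1 and the minimum mean in any group, and 6 were called (2.99%, against 6.14%), 2 higher (against 4.02%) and 4 lower (against 2.12%). The called genes were nhr-91 (-1.83, SE 0.38), nhr-85 (-1.48, SE 0.35), nhr-113 (-1.24, SE 0.19), nhr-71 (-1.02, SE 0.13), nhr-170 (1.15, SE 0.15) and nhr-280 (1.63, SE 0.25), with adjusted p-values between 0.00016 and 0.00852. The interaction contains the untreated strain difference with its sign reversed, so it shares its untreated libraries with the first comparison. All of the called genes but nhr-91 were also called there, with the opposite sign. Without N2 vitC replicate 3, nhr-36 took the place of nhr-71 among 6 called genes (against 7.85%), and 49 passed (24.4%, against 34.1%). The calls of nhr-113 and nhr-170 held under all 21 alternatives. That of nhr-85 held in 1 of 12 runs that left out a library and that of nhr-91 in 4 of 12.

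Each strain gave its own pattern for these genes. The count of nhr-71 was 263, 271 and 299 in vitamin C treated N2, above the untreated 187, 209.5 and 219.6, and 284, 287 and 281 in vitamin C treated wrn-1(gk99), below the untreated 427, 401 and 457. For nhr-113 the treated counts were 108, 108 and 119 in N2 and 115.4, 113.5 and 118 in wrn-1(gk99). In nhr-170 they were 166, 140.0 and 152 in N2 and 152, 172 and 174 in wrn-1(gk99), and in nhr-280 93.0, 87.9 and 102 in N2 and 90.8, 102 and 95.0 in wrn-1(gk99). In these 4 genes the treated libraries of the strains overlapped, while the untreated ones did not. In nhr-71 and nhr-113 this overlap rested on N2 vitC replicate 3 (299 and 119), since replicates 1 and 2 lay below every treated mutant library. Of the low genes, nhr-162 (-1.98), nhr-265 (-1.84), nhr-99 (-1.65) and nhr-76 (-1.20) passed the interaction and would be called without the minimum mean.

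The vitamin C comparisons of the strains have no library in common and were set beside each other. Both rest on the same spread per gene, so that passing in one is not independent of passing in the other. Of the receptor genes 5 passed in both, nhr-71, nhr-99, nhr-104, nhr-170 and nhr-226, and all 5 moved in opposite directions. Over all tested genes 522 passed in both, and 391 of them moved in opposite directions. Without N2 vitC replicate 3 these numbers were 22 receptor genes with 14 opposite, and 2185 genes with 1124 opposite. Across the 201 genes the log2 responses correlated at a Pearson r of -0.03 and a Spearman rho of -0.10, and across all tested genes at -0.03 and -0.16. Without N2 vitC replicate 3 the values were 0.06 and -0.02 for the receptor genes and 0.09 and -0.04 for all tested genes, so that the sign of r turned. These points share libraries within each strain and are not independent.

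**Figure D5:**
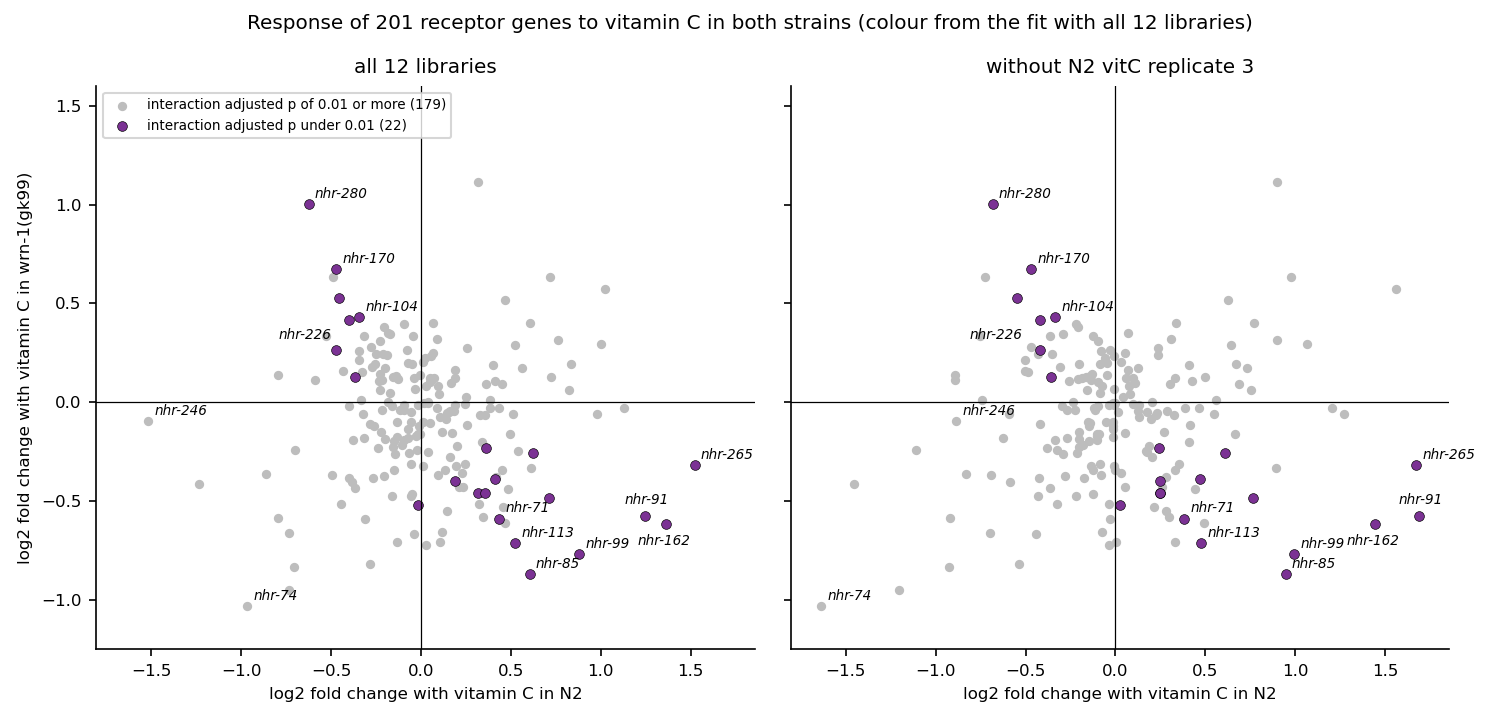
Log2 fold change with vitamin C in N2 (horizontal axis) and in wrn-1(gk99) (vertical axis) for the 201 receptor genes, with all 12 libraries on the left and without N2 vitC replicate 3 on the right. Purple points are the 22 genes that passed the interaction in the fit with all libraries. Both nhr-280 and nhr-170 lie at the upper left, and nhr-91, nhr-85, nhr-99 and nhr-162 at the lower right.

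The last comparison set vitamin C treated wrn-1(gk99) against untreated N2. It shares its N2 libraries with the first comparison and its treated libraries with the second. Of the receptor genes 32 passed (15.9%, against 22.1% of all tested genes), 19 higher (9.45%, against 8.4%) and 13 lower (6.47%, against 13.7%), and 1 was called (0.498%, against 3.7% called and 1.02% called higher). The called gene, nhr-112 (Y70C5C.6, chromosome V, 7 exons), had 92.7, 84.9 and 71.4 in N2 and 173.4, 188 and 155 in vitamin C treated wrn-1(gk99) (log2 fold change 1.05, SE 0.16, adjusted p = 0.000467). Its count was 141, 157 and 154 in untreated wrn-1(gk99) and 143.7, 121 and 185 in vitamin C treated N2, so that untreated N2 was the lowest of the 4 groups. The call was lost without N2 replicate 3 or wrn-1(gk99) vitC replicate 2. With the equal totals, which moved the median of all genes by 0.18, 33 genes passed as higher and 5 as lower. The shares of all tested genes were not counted for that scaling. Without N2 vitC replicate 3, 68 passed (33.8%, against 50.4%) and 1 was called (against 4.17%).

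Among the genes listed next, the differences were close to those of the untreated strains for some, smaller for others and larger for nhr-105. That gene passed here (limma, adjusted p = 0.00019) and not between the untreated strains (adjusted p = 0.0303). The gene nhr-246 had 17.9, 23.5 and 29.7 in vitamin C treated wrn-1(gk99), a log2 fold change against N2 of -2.54 (-2.44 without the treatment). For nhr-148 the values were 1.57 and 1.82, for nhr-162 1.29 and 1.91, for nhr-265 0.96 and 1.28, and for nhr-127 1.13 and 1.06. On the lower side they were -0.82 and -0.31 for nhr-105, -0.73 and -1.08 for nhr-5, -0.61 and -0.87 for nhr-114, and -0.57 and -0.88 for nhr-69. The genes nhr-74, nhr-85, nhr-173, nhr-170 and nhr-280, which were called between the untreated strains, did not pass here, with log2 fold changes of 0.62, 0.28, 0.29, -0.35 and -0.60.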

How the data were processed

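Whole worm RNA of 12 populations (3 biological replicates in each of 4 groups) had been sequenced. Per the labels and the study's methods, the authors used TopHat for the alignment (genome ce10) and htseq-count for the counts per gene, and normalized the libraries with DESeq. The deposited signal is this normalized count, the reads of a gene over the size factor of its library. Versions and the strand setting are not given in the sources used here. In each library 100% of the nonzero values were within 0.02 of a whole number of reads after division by the step of 1 read. The recovered reads served for edgeR 4.0.16 and DESeq2 1.42.0 as alternatives. No value column was left without a sample (0).

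Genes with a mean of at least 10 were tested in R 4.3.3 with limma 3.58.1 (lmFit, eBayes with a trend) on log2(normalized count + 1), 12 libraries in 4 groups, with Benjamini-Hochberg adjustment over all 14352 genes. A log2 fold change on this scale understates the change of low genes. The p-values rest on a spread shared by the 4 groups. The fit was tested on simulated data. Chromosomes, exons and coding lengths come from the WBcel235 annotation, which is not the authors' build, so no coordinates are given.

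Members and gene lists were chosen with earlier results of these data known. Named are all called members, the role lists, up to 5 highest and 5 lowest ratios among passing members whose groups did not overlap, the 5 highest levels per kb and the members beside the limit. Further names were chosen after their values were seen (nhr-31, nhr-55, nhr-73 and the genes of the runs). Close copies were not compared, as no sequence was at hand. Alternatives covered the pseudocount (0.1, 10), the genes tested (all with a read, mean of at least 50), the minimum mean, equal totals, only the groups compared, a replicate block, the other tools and each library left out.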

Additional observations from a re-analysis of the deposited data

Results flagged for a closer look

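The response to vitamin C differed between the strains in 6 receptor genes by the interaction term of the limma fit, which gives the log2 response in wrn-1(gk99) minus that in N2. The difference was -1.02 for nhr-71, -1.24 for nhr-113, -1.48 for nhr-85 and -1.83 for nhr-91, and it was 1.15 for nhr-170 and 1.63 for nhr-280. These results are not separate from the calls between the untreated strains, since the interaction contains that difference with its sign reversed. In nhr-71 and nhr-170 each strain passed on its own, in opposite directions. For nhr-85 and nhr-91, N2 vitC replicate 3 (186 and 520.1) lay far from replicates 1 and 2 (395 and 365, and 1329.6 and 1272). Without it the differences were -1.82 for nhr-85 and -2.27 for nhr-91. The differences of nhr-113, nhr-170 and nhr-280 were then -1.19, 1.15 and 1.68, and that of nhr-71 was -0.97, under the size asked for a call.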

How the results depend on the processing

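No receptor gene named as called or passing changed its direction under an alternative. Apart from the fit without N2 vitC replicate 3, the shares of all tested genes under the alternatives were not counted. The alternatives were fitted to all tested genes, but for the named genes outside the family only the fit without N2 vitC replicate 3 was read out. Without a minimum group mean the called receptor genes numbered 23 between the untreated strains, 5 for vitamin C in N2, 5 for vitamin C treated wrn-1(gk99) against N2 and 10 for the interaction. With only the 2 groups compared, vitamin C in wrn-1(gk99) gave 1 call and 43 passing genes, vitamin C in N2 gave 0 and 0, and treated wrn-1(gk99) against N2 gave 50 passing. Over the libraries left out in turn, the calls ranged from 6 to 9 between the untreated strains, 0 to 1 for vitamin C in each strain, 0 to 2 for treated wrn-1(gk99) against N2 and 3 to 6 for the interaction. The passing genes ranged from 44 to 93, from 4 to 42 (vitamin C in wrn-1(gk99)), from 6 to 56 (in N2), from 12 to 68 and from 15 to 49. The highest numbers came without N2 vitC replicate 3. Of the 64 genes that passed between the untreated strains 41 passed under all alternatives, as did 3 of 16, 0 of 20, 9 of 32 and 15 of 22 in the other comparisons. The 0 of 20 (vitamin C in N2) was set by the fit with only the 2 groups compared, in which 0 passed. Deviations of libraries with the same replicate number correlated at -0.08 to 0.17, above 0.1 in 5 of 18 pairs. Those of libraries with different numbers correlated at -0.13 to 0.10, above 0.1 in 1 of 36 pairs. The labels do not say whether the numbers pair the samples, and the main fit treated them as unpaired. The replicate block gave 9, 0, 1, 1 and 6 calls and 64, 13, 16, 24 and 20 passing genes. Calls of genes with few reads are limited by depth, and 42 receptor genes had a mean below 50.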
